A study of Drosophila melanogaster with 3 samples.

Results

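The genes described here encode subunits of the respiratory chain and of ATP synthase that are carried in the nuclear genome of the fruit fly Drosophila melanogaster. They were taken by symbol, as protein-coding genes of any chromosome arm from 2L to X, chromosome 4 included, whose symbol starts with ND- (complex I), UQCR- (complex III), COX followed by a digit (complex IV) or ATPsyn (complex V, the ATP synthase). This gave 80 of 13945 protein-coding genes, with 40 in complex I, 9 in complex III, 16 in complex IV and 15 in complex V. Subunit genes with other symbols, such as RFeSP (complex III), levy (complex IV) and blw (complex V), are outside these counts and are described further below. Of the 80, 21 carry the L, in some symbols followed by a digit, that marks a paralog of a subunit gene. ND-MNLL, whose final L belongs to the name of the subunit, was counted among the other 59. The rule uses symbols and no measured value, but it was set with earlier results of these data known.

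Sites of the transcription factor Knirps, a gap gene product of the nuclear receptor family, had been mapped by chromatin immunoprecipitation with sequencing (ChIP-seq). The flies came from a stable transgenic line, kni-GFP, in which Knirps has GFP fused at its C-terminus, and an antibody against GFP was used for the pull-down. Whole embryos of mixed sex, aged 0 to 14 h, formed 1 group of 3 biological replicates, with chromatin sonicated to 200 to 800 bp, and no second genotype, treatment or stage was part of the design. Embryos of this age range mix many cell types and stages, and neither the copy number nor the expression level of the transgene is given in the sources used here. The comparisons therefore set these genes beside all protein-coding genes, the 80 included, and one replicate beside another, and no test between conditions was possible.

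The respiratory chain is a set of enzyme complexes in the inner mitochondrial membrane. Complexes I, III and IV pass electrons from NADH to oxygen and pump protons, and complex V uses the proton gradient to make ATP. Most subunits are encoded in the nucleus and imported, and the rest come from mitochondrial DNA. Many nuclear subunit genes of the fly have a broadly expressed copy and a retained duplicate, and such duplicates are known in flies for expression in the testis.

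Of the 80 genes, 9 had a summit of a Knirps-GFP peak within 500 bp of one of their own start sites in the optimal list, which is 11.2% (95% Wilson interval 6.03% to 20%). The optimal list is the authors' final set of 7129 peaks, and in it 18.4% of all protein-coding genes had such a summit, a share inside the interval of the subunit genes. Genes with an optimal summit, called bound in what follows, were found in complex I (ND-42, ND-51, ND-ASHI, ND-SGDH and ND-MWFE), complex IV (COX5A, COX6B and COX7C) and complex V (ATPsynC). The UQCR- genes of complex III and the L-suffix paralogs had none. Of the 9 summits that were strongest at these genes, 5 lay nearer to the start site of a neighbouring gene than to that of the subunit gene.

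The sequences at 3 of these promoters are shown because a summit lay in the short stretch between 2 start sites. They are given 5′ to 3′ on the strand of the subunit gene, ending at the base before its start site for ND-42, ND-51 and ND-SGDH. These stretches reach up to the base next to the start site of the neighbour (Cchl, CG13994 and RhoGAP68F). The intron stretch of COX7AL2 is shown because it held the highest-ranked optimal summit inside any of the 80 genes. Capitals mark the base of an optimal summit with 5 bases on either side. For ND-42 this is the weaker of 2 summits, and the stronger lies outside the stretch, beyond the start of Cchl. The coordinates are chr3R:22027481-22027708 (plus strand) for ND-42, chr2L:6062758-6062988 (minus strand) for ND-51, chr3L:12138585-12138867 (minus strand) for ND-SGDH and chr2L:2196781-2196981 (minus strand) for COX7AL2. All are on build dm6, from the RefSeq copy of that assembly.
ND-42: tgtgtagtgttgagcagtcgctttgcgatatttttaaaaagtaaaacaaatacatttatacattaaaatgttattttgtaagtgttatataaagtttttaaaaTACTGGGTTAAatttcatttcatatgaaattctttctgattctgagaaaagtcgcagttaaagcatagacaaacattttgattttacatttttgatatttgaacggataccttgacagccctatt
ND-51: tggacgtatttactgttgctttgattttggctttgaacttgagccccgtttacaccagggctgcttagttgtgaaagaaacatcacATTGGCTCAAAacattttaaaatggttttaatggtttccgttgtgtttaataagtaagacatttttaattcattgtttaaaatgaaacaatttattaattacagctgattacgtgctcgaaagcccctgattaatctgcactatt
ND-SGDH: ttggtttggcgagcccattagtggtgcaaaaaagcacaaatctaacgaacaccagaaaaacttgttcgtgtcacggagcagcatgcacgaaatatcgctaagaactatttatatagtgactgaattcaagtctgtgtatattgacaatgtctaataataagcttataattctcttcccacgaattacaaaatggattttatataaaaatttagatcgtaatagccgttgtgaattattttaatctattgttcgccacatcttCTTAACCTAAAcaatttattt
COX7AL2 intron: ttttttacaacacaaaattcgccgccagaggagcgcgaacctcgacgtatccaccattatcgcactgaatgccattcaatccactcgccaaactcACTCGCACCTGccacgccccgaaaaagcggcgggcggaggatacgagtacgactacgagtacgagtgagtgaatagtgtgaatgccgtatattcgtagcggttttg
The ND-42 stretch is 228 bases long with 26.8% G and C, the ND-51 stretch 231 bases with 33.8%, and the ND-SGDH stretch 283 bases with 32.9%. The COX7AL2 stretch, 100 bases on either side of its summit, is richer in G and C, at 51.7%.

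Complex I, the NADH dehydrogenase, held 5 of the 9 bound genes, and also 40 of the 80 genes. Its share was 12.5%, against 18.4% of all protein-coding genes. ND-42 (FBgn0019957, 3R, 22027709 to 22029393, plus strand), which encodes an accessory subunit, had the strongest summit within 500 bp of a start site among the 80 genes. The summit ranked 850 of 7129 with a signal value of 562.6, the authors' measure of peak strength over the control. Replicate ranks are given for the strongest summit within 100 bp of the optimal or pooled one, unless stated otherwise. The summit at ND-42 ranked 695 in replicate 1, 1282 in replicate 2 and 742 in replicate 3, so it was well inside the strongest 7129 peaks of each replicate. The peak (3R, 22027126 to 22027645) had its summit 323 bp upstream of the start of ND-42, inside the 5′ UTR of Cchl and 72 bp from a start of Cchl. Cchl encodes the enzyme that attaches heme to cytochrome c. A second summit in the same region, with a signal value of 402.4 and rank 1855, lay 120 bp upstream of ND-42 and 109 bp from Cchl. Its ranks in the replicates were 2520, 4263 and 3046.

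ND-51 (FBgn0031771, 2L, 6060842 to 6062757, minus strand) encodes the flavin-binding core subunit at which NADH is oxidised. Its summit had a signal value of 402.2 and rank 1860 and lay 140 bp upstream of ND-51 and 92 bp from the start of CG13994, in the intergenic stretch printed above (peak at 2L, 6062637 to 6063156). It ranked 1552 in replicate 1 and 4253 in replicate 3. Replicate 2 had no summit within 500 bp of the start sites of ND-51 among its 30000 peaks, so the replicates differed at this gene more than at ND-42.

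ND-ASHI (FBgn0029888, X, 6677262 to 6679118, minus strand), ND-SGDH (FBgn0011455, 3L, 12137496 to 12138584, minus strand) and ND-MWFE (FBgn0085468, 2R, 13158666 to 13160190, plus strand) encode accessory subunits of the membrane arm. Their signal values were 245.3, 242 and 231.6 and their ranks 4744, 4847 and 5213, in the weaker part of the optimal list. The summit at ND-ASHI ranked 3779, 5947 and 6743 in replicates 1 to 3. It was 320 bp upstream of ND-ASHI, in an intron of Fum1 and 202 bp from a start of Fum1, the gene of fumarase in the citric acid cycle. At ND-SGDH the ranks were 3523, 7830 and 9158, and the summit lay 16 bp upstream of the gene's own start, with RhoGAP68F 268 bp away. At ND-MWFE the ranks were 2614, 5827 and 14745, and the summit lay 199 bp upstream, in an intron of TppII and 22 bp from a start of that peptidase gene. Replicate 1 ranked each of these 3 summits highest and replicate 3 lowest. Of the 3, the summit at ND-ASHI was the one among the strongest 7129 peaks of all replicates.

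**Figure D1:**
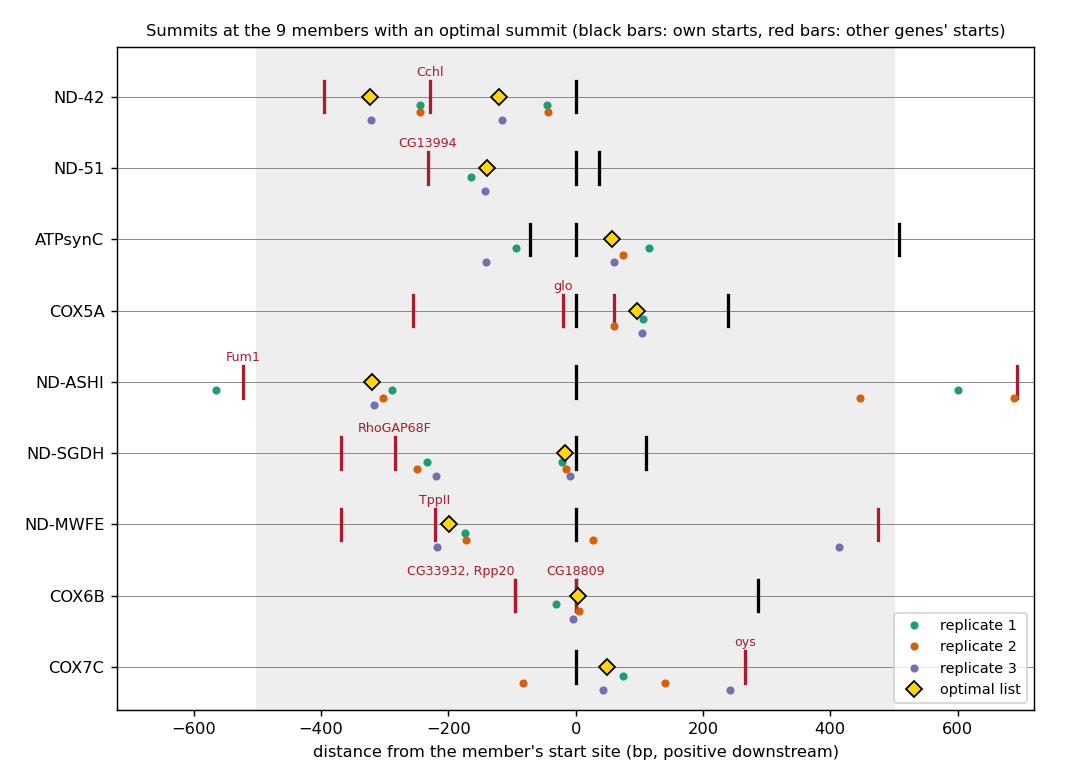
Distance in bp of Knirps-GFP summits from the start site of each of the 9 genes with an optimal summit, in the direction of transcription (diamonds, optimal list; dots, the 3 replicate lists of 30000 peaks; black and red bars, start sites of the gene and of its neighbours; grey, the 500 bp window). At ND-42, ND-51, COX5A, ND-ASHI and ND-MWFE the strongest optimal summit lies nearer to a red bar than to a black one.

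The 16 COX genes of complex IV, cytochrome c oxidase, held 3 bound genes (18.8%, against 18.4% of all protein-coding genes). COX5A (FBgn0019624, 3R, 11819359 to 11820299, plus strand) had a summit with a signal value of 257.7 at rank 4380, which ranked 2097, 6971 and 8332 in replicates 1 to 3. It lay 97 bp downstream of a start of COX5A in its intron and 36 bp from a start of glo, which encodes an RNA-binding protein. COX6B (FBgn0031066, X, 19740537 to 19744335, minus strand) had a summit with a signal value of 229.5 at rank 5291, and at 4783, 8144 and 4888 in the replicates. It was 4 bp from the start sites of both COX6B and CG18809 and 100 bp from those of CG33932 and Rpp20, so 4 genes share it at the distance used. COX7C (FBgn0040773, 2R, 10048353 to 10050066, plus strand) was the weakest of the 9, with a signal value of 194 at rank 6823. Its matched summits ranked 13135, 8310 and 5076 in the replicates. The summit lay 49 bp downstream of the start of COX7C, in the 5′ UTR, with oys at 217 bp. Replicate 1 ranked COX5A and COX6B higher than the other replicates did and COX7C lower.

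ATPsynC (FBgn0039830, 3R, 31216145 to 31219630, minus strand) was the 1 bound gene of the 15 ATPsyn genes of complex V (6.67%, against 18.4% of all protein-coding genes). It encodes the subunit that forms the rotating ring in the membrane. Its summit had a signal value of 337.8 at rank 2652 and lay 57 bp downstream of a start site, in the 5′ UTR, with no start of another gene within 500 bp. Among the 9 bound genes this was the one with no neighbour at that distance. The replicates spread widely here, with ranks of 10536 in replicate 1, 4395 in replicate 2 and 981 in replicate 3.

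The 9 UQCR- genes of complex III, the cytochrome bc1 complex, had no optimal summit (95% Wilson interval 0% to 29.9%). RFeSP of the same complex, which the symbol rule leaves out, had one and is described below. The highest of the 9 was UQCR-C2 (FBgn0250814, 3L, 16584124 to 16586111, plus strand), which encodes a core protein. It ranked 7255 in the pooled list with a signal value of 186.2, and its summit lay 61 bp upstream of a start site. It ranked 14430, 5103 and 8375 in replicates 1 to 3. In replicate 2 it would therefore count among the strongest 7129 peaks, and in the others it would not. UQCR-14 (FBgn0030733, X, 16286288 to 16286988, plus strand) had a summit 5 bp upstream of its start at pooled rank 17498, with a signal value of 87.34. The matched ranks were 19026 in replicate 2 and 12057 in replicate 3, with none in replicate 1. UQCR-6.4L (FBgn0262842, 3L, 16566750 to 16567300, plus strand), a paralog, had one at pooled rank 17738 (signal value 86.12), 265 bp downstream of its start, and ranked 17950, 17156 and 25762 in the replicates. UQCR-11, UQCR-11L and UQCR-14L had no summit in any list.

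Several genes stood just below the edge of the optimal list, which runs to rank 7129 of the pooled peaks. The lowest-ranked bound genes inside the list were COX7C at rank 6823 and, farther from its edge, COX6B at 5291. Just outside it were ND-24 at 7223, UQCR-C2 at 7255, ND-15 at 7685, ND-MNLL at 8177, COX7AL at 8636 and ATPsynE at 8725. ND-24, an iron-sulfur core subunit, had a signal value of 186.8 and ranked 9419, 7862 and 8937 in the replicates, which is outside the strongest 7129 in each. ATPsynE (FBgn0038224, 3R, 14326947 to 14327735, plus strand), a small membrane subunit of the synthase, had a signal value of 163.1 and ranks of 10545, 8294 and 8906. ATPsynCF6 (FBgn0016119, 3R, 23355220 to 23356064, minus strand), a subunit of the stalk that holds the synthase together, followed at pooled rank 10335 with a signal value of 142.9. It ranked 11140, 16761 and 5876 in the replicates. Of further genes taken in alphabetical order, ND-13A (pooled rank 15358), COX5B (9643), ATPsynB (15132) and ATPsynD (13540) had pooled summits. ND-13B and COX4L had a summit in 1 replicate list each, and ND-18 and COX4 in none.

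The share of subunit genes with a summit among the strongest peaks of each replicate was close to that in the optimal list. Among the strongest 7129 peaks of each replicate, 9, 7 and 9 of the 80 genes had a summit in replicates 1, 2 and 3, a mean of 10.4% ± 1.44 (SD, n = 3). The same lists held a summit for 18.9%, 17.6% and 19.1% of all protein-coding genes. The subunit genes thus lay below the share of all genes in each replicate and in the optimal list, and the difference was not tested. By complex, the replicates gave 6, 3 and 4 genes in complex I, 0, 1 and 0 in complex III, 3, 2 and 2 in complex IV and 0, 1 and 3 in complex V. With counts this small the complexes could not be ranked. The genes themselves changed from replicate to replicate, since 2 genes, ND-42 and ND-ASHI, were in the top list of all 3 replicates, 6 were in 2 lists, 7 in 1 and 65 in none. The 2 genes are 2.5% of the 80, and 12.3% of all protein-coding genes were in all 3 top lists. The shares of all genes in 2, 1 or none of the top lists were not counted.

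**Figure D2:**
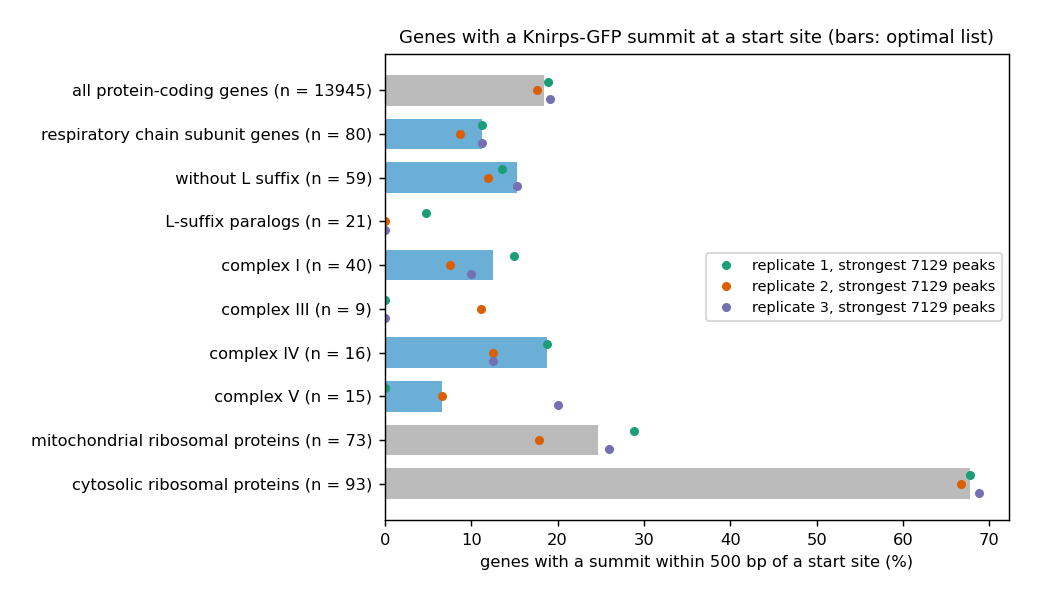
Percentage of genes in each set with a Knirps-GFP summit within 500 bp of a start site, as bars for the optimal list and dots for the strongest 7129 peaks of each of the 3 replicates. The respiratory chain genes reach 11.2% and all protein-coding genes 18.4%, and the L-suffix paralogs have no bar.

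In the longer lists the shares of the subunit genes and of all genes lay closer together. In the pooled list of 30000 entries, labelled as peaks and background, 30 of the 80 genes had a summit (37.5%, Wilson interval 27.7% to 48.5%). Of all protein-coding genes 38.8% did. In the replicate lists of 30000 peaks the counts were 29, 31 and 35, a mean of 39.6% ± 3.82 (SD, n = 3). The shares were 36.2%, 38.8% and 43.8%, and those of all protein-coding genes 41.6%, 41% and 40.7%. The subunit genes were thus lower in replicates 1 and 2 and the pooled list and higher in replicate 3, with no test. A summit was present in all 3 of these lists for 21 subunit genes (26.2%, against 30.8% of all genes), in 2 lists for 11 genes and in 1 list for 10. The other 38 genes had none in any list, pooled list included, which is 47.5% against 48% of all genes. The shares of all genes with a summit in 2 lists or in 1 were not counted. The median signal value over the 9 bound genes was 245.3 (194 to 562.6) at a median rank of 4744, and over all 2568 bound genes it was 305.3 (188.3 to 4913) at a median rank of 3241. The subunit genes thus had the lower median, from 9 genes and with no test.

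**Figure D3:**
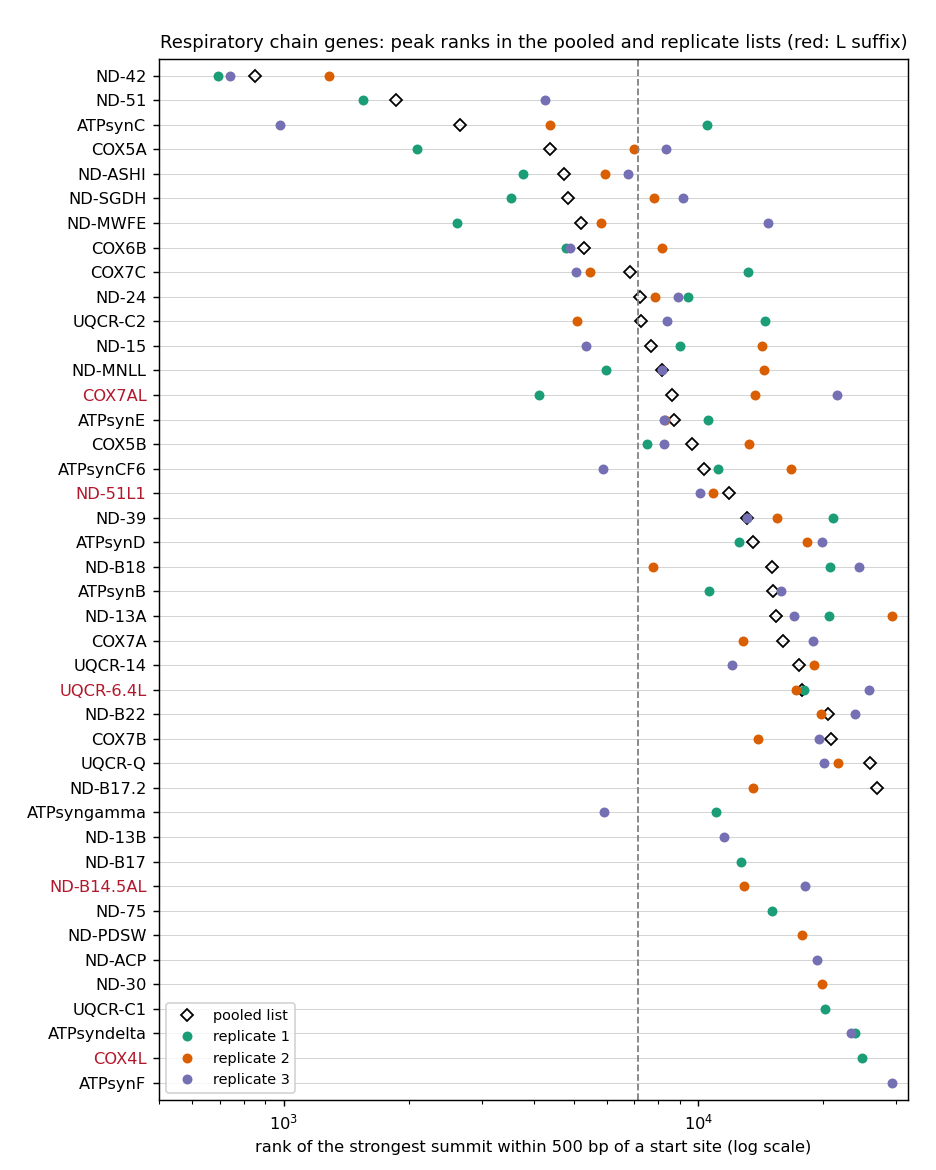
Rank of the strongest summit within 500 bp of a start site (log scale, strongest at the left) for the 42 genes with a summit in at least 1 list of 30000 peaks, in the pooled list (diamonds) and the replicates (dots). The dashed line is rank 7129, the end of the optimal list, and the names of L-suffix paralogs are in red. ND-42 and ND-ASHI have 4 symbols each left of the line, and ND-51, with no summit in replicate 2, has 3.

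The paralogs with an L suffix had a lower share of genes with a summit than the other subunit genes in each list, a difference that was not tested. In the optimal list 0 of 21 paralogs (Wilson interval 0% to 15.5%) and 9 of 59 other genes (15.3%, 8.24% to 26.5%) had a summit. In the pooled list they were 3 of 21 (14.3%, 4.98% to 34.6%) and 27 of 59 (45.8%, 33.7% to 58.3%). In both lists the 2 intervals overlap, in the pooled list only from 33.7% to 34.6%, and an overlap does not show that the shares are equal. In the replicate lists of 30000 peaks the paralogs numbered 3, 4 and 4, and the other genes 26, 27 and 31. Among the strongest 7129 peaks the paralogs numbered 1, 0 and 0, and the others 8, 7 and 9. Paralogs also have fewer annotated start sites, and the share of genes with a summit rose with the number of start sites. Of the 21 paralogs, 19 have 1 start site, and 3 of the 19 had a pooled summit (15.8%), against 7 of 27 other subunit genes with 1 start site (25.9%). All protein-coding genes with 1 start site reached 30.3% in the pooled list and 12.5% in the optimal list. With 2 start sites they reached 27.9% in the optimal list, and with 3 or more 50.1%. The subunit genes reached 4.35% (2 of 46), 17.2% (5 of 29) and 40% (2 of 5) there with 1, 2 and 3 or more start sites. Of those with 1 start site, 0 of the 19 paralogs and 2 of the 27 others (7.41%) had an optimal summit. The part of the number of start sites in the difference was not tested further.

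**Figure D4:**
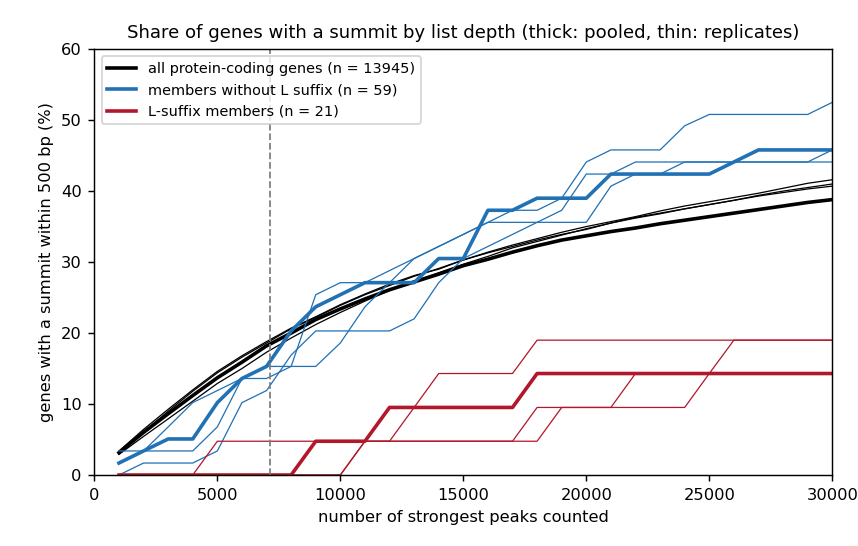
Percentage of genes with a summit within 500 bp of a start site as more of the strongest peaks are counted, for the pooled list (thick lines) and the replicates (thin lines), with the end of the optimal list at 7129 peaks dashed. The 59 genes without an L suffix lie below all genes at 5000 pooled peaks (10.2% and 13.7%) and above them at 20000 (39% and 33.7%), and the 21 L-suffix paralogs stay lowest.

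Gene by gene, the 3 paralogs with a pooled summit were COX7AL, ND-51L1 and UQCR-6.4L. COX7AL, the paralog of the COX7A subunit of cytochrome c oxidase, had its summit at pooled rank 8636. Its strongest summits in the replicates ranked 4120, 13691 and 21619, so replicate 1 placed it among its strongest 7129 peaks. ND-51L1 had a summit 377 bp upstream, in an intron of Smurf, at rank 11833, with ranks of 10824 and 10078 in replicates 2 and 3 and none in replicate 1. ND-B14.5AL had a summit in replicates 2 and 3 (12851 and 18021) and COX4L in replicate 1 (24788), and neither had one in the pooled list. No list held a summit at ND-20L, ND-24L, ND-49L, ND-51L2, UQCR-11L, UQCR-14L, COX5BL, COX6AL, COX6AL2, COX6CL, COX7AL2, COX7CL, ATPsynCF6L, ATPsynGL, ATPsynbetaL or ATPsynepsilonL.

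The genes that the paralogs are named after ranged from a high pooled rank to no summit in any list. ND-51, parent of ND-51L1 and ND-51L2, ranked 1860 in the pooled list, COX7C ranked 6823, ND-24 7223 and COX5B 9643. ATPsynCF6 ranked 10335, COX7A 15950 and UQCR-14 17498. No list held a summit at ND-20, ND-49, ND-B14.5A, UQCR-11, UQCR-6.4, COX4, ATPsynG or ATPsynbeta, the catalytic subunit of the synthase. COX6AL, COX6AL2 and COX6CL are named after subunits whose fly genes are levy and cype, and ATPsynepsilonL after the subunit of sun. At 2 adjacent pairs the summits lay at the parent. COX7C and COX7CL lie side by side on 2R, and the nearest optimal summit was 49 bp from a start of COX7C and 1946 bp from that of COX7CL. COX5B and COX5BL lie side by side on 2L, with the nearest pooled summit 72 bp from COX5B and 1559 bp from COX5BL. COX7A and COX7AL, on the same stretch of 3R, both had pooled summits, at ranks 15950 and 8636.

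COX7AL2 differed from the other paralogs in that strong optimal peaks lay inside the gene, farther than 500 bp from its 3 start sites. COX7AL2 (FBgn0085201, 2L, 2192525 to 2197912, minus strand) held an interval from 2196429 to 2197484 with 2 summits in an intron. The first had a signal value of 1423 and rank 54, lay 1031 bp from the nearest start of COX7AL2, and ranked 101, 38 and 79 in the replicates. The second had a signal value of 985 and rank 172, lay 828 bp from a start, and ranked 1267, 136 and 395. Another intronic peak (2193404 to 2193923) had a signal value of 536.6 and rank 964, was 654 bp from a start, and ranked 1327, 1130 and 912. These 3 summits were within the strongest 7129 peaks of each replicate, and no other protein-coding gene had a start site nearer to them. ND-15 also held 6 optimal summits beyond 500 bp from its starts, but its annotated body spans 41305 bp and contains the start sites of CG4822, CG3164, Gs1 and CG42399, to which 5 of them were nearest. ND-39 held 1 (rank 4370, signal value 258), 1340 bp from its nearest start and 517 bp from that of ZnT77C. COX7AL2, ND-15 and ND-39 were chosen for description here after their values were seen.

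Neighbouring start sites marked most of the bound subunit genes. Of the 80 genes, 40 have the start site of another protein-coding gene within 500 bp of one of their own, and 8 of these had an optimal summit (20%). Of the 40 without such a neighbour 1 did, ATPsynC (2.5%). Among all protein-coding genes the shares were 27.2% (1173 of 4309) with a neighbour and 14.5% (1395 of 9636) without. In the pooled list the subunit genes reached 22 of 40 with a neighbour (55%) and 8 of 40 without (20%), and all genes 53.2% and 32.3%. The paralogs seldom have such a neighbour (3 of 21), and the other 59 genes often do (37). At the 9 bound genes the nearest start site was the gene's own in 3 cases (ND-SGDH, ATPsynC and COX7C), a tie in 1 (COX6B) and another gene's in 5, which is 55.6%. Over all 2568 bound genes it was another gene's in 484, or 18.8%. The 2 shares are not like for like, since 8 of the 9 but 1173 of the 2568 have a neighbouring start within 500 bp. The part of this in the difference was not tested. A summit between closely spaced start sites cannot be assigned to either gene from these data. When each summit was given solely to the gene whose start was closest, 4 subunit genes were left, ATPsynC, COX6B, COX7C and ND-SGDH, which is 5%, against 15.3% of all genes.

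**Figure D5:**
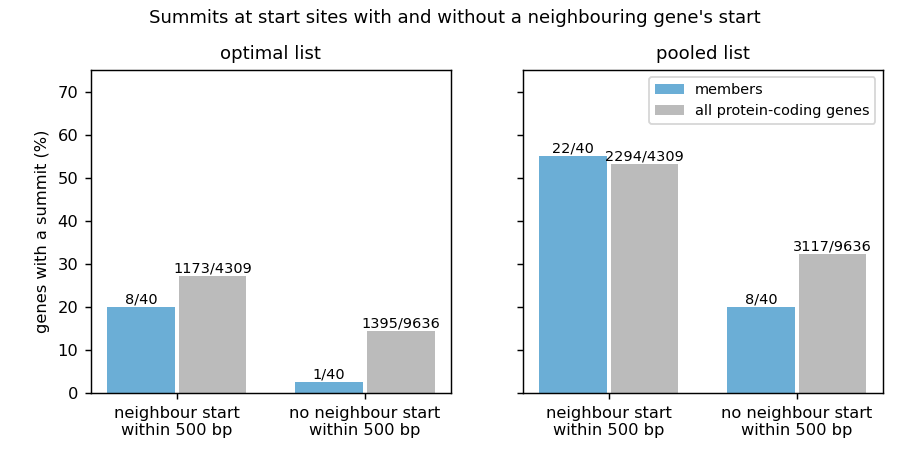
Percentage of genes with a summit within 500 bp of a start site in the optimal list (left) and the pooled list (right), split by whether another protein-coding gene starts within 500 bp, for the 80 respiratory chain genes (blue) and all protein-coding genes (grey), with counts above the bars. Of the 40 respiratory chain genes without a neighbour 1 had an optimal summit.

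The distance to the nearest optimal summit was similar to that of other genes. Its median was 6748 bp over the 80 genes and 7840 bp over all protein-coding genes. It was 12388 bp for the paralogs and 5856 bp for the other subunit genes, and 31 of the 80 genes (38.8%) had no optimal summit within 10 kb, as had 44% of all genes. The farthest were UQCR-11 (2122339 bp) and ND-AGGG (1977884 bp), both in the part of arm 3L close to the centromere. By arm, optimal summits were at 1 of 16 genes on 2L, 2 of 15 on 2R, 1 of 19 on 3L, 3 of 16 on 3R, 2 of 12 on the X and 0 of 2 on chromosome 4. All protein-coding genes were not counted by arm, and with counts this small the arms could not be compared.

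The promoters of the subunit genes were searched on both strands for 7 short motifs, from 250 bp before to 50 bp after the start site. AGAGCA, a simplified form of the sequence that Knirps prefers, was in 6 of 80 promoters (7.5%) and in 14.3% of all promoters. It was in none of the windows of 100 bp on either side of the 10 optimal summits at the subunit genes, against 14.9% of the windows at all 2639 optimal summits near start sites. GAGAG, a site of the GAGA factor, was in 21.2% of the subunit promoters and 29.7% of all, and in 1 of the 10 summit windows (COX6B) against 38.2%. GGCGC was in 18.8% and 25.6% of promoters, and in 1 of the 10 summit windows (ND-ASHI) against 26.1%. GGTCACACT, the core of the promoter element known as Motif 1, was in 15 of the 80 promoters (18.8%) and 6.05% of all, with 14 of the 15 among the 59 genes without an L suffix. TATCGATA, the DNA replication-related element, was in 9 of the 80 (11.2%) and 9.36% of all, and in none of the 21 paralogs. It was in 1 of the 10 summit windows (ND-SGDH) against 3.18%. CACGTG was in 5% and 4.2%. The nuclear respiratory gene element was searched as TTACATAA, TTATGTAA, TTACGTAA and TTATATAA. It was in 6.25% and 5.18% of promoters, and in 2 of the 10 summit windows against 2.69%. As TTATATAA it occurs in the ND-42 stretch printed above, 17 to 24 bp from the second summit, and in the ND-SGDH stretch, 63 to 70 bp from the summit. Some of these matches can be part of AT-rich sequence, since the median G and C content was 33.8% in the subunit promoters and 38% in all. A match is a description of the letters and not a measured site. With 10 summit windows at the subunit genes these shares are coarse, and no difference was tested.

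Other genes of the pathway were counted in the same way. A list of 27 genes covered complex II, cytochrome c, subunits with other names, assembly factors of complex IV and regulators of mitochondrial gene expression. Of these, 6 had an optimal summit at their own start (22.2%), against 18.4% of all protein-coding genes, and 14 a pooled one (51.9%), against 38.8%. At a distance of 250 bp 3 of the 27 were left (11.1%), against 14.6% of all protein-coding genes, and these differences were not tested. Among the strongest 7129 peaks of the replicates they numbered 5, 6 and 7. The strongest was Cyt-c-d, a cytochrome c gene, with a signal value of 512.3 at rank 1066, and its replicate ranks were 1417, 1910 and 540. That summit lay 343 bp downstream of the start and 109 bp from that of CG31808. Next came blw, the alpha subunit of the synthase, whose summit 132 bp upstream had a signal value of 354.6 and rank 2397, with replicate ranks of 6296, 1553 and 2213 and no neighbouring start. Cox17, a copper chaperone of complex IV, had a summit 80 bp upstream at rank 3838 (278.3), and levy, a subunit of complex IV, 23 bp upstream at rank 4549 (252.2). Both were among the strongest 7129 peaks of all 3 replicates. SdhC of complex II (rank 4535, signal value 253) had its summit 431 bp upstream, 33 bp from the start of Tctp. RFeSP, the Rieske protein of complex III, had one 441 bp upstream at rank 6691 (197.1). Of the 21 without an optimal summit, Cox10 and Cyt-c1 had none in any list. Cox11, Cyt-c-p and Cyt-c1L had none in the pooled list, and cype had a pooled summit at rank 15278.

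Set beside the genes of 2 other large assemblies, the subunit genes had the lowest share with an optimal summit (11.2%, Wilson interval 6.03% to 20%). Without the L-suffix paralogs it was 15.3%, and among all protein-coding genes 18.4%. Genes for mitochondrial ribosomal proteins, which also encode imported mitochondrial parts, had an optimal summit in 18 of 73 cases (24.7%, Wilson interval 16.2% to 35.6%). The 2 intervals overlap. In the replicates' strongest peaks 21, 13 and 19 of these genes had a summit. Genes for cytosolic ribosomal proteins had an optimal summit in 63 of 93 cases (67.7%) and a summit in 63, 62 and 64 in the replicates' strongest peaks. In each replicate the count per gene was lowest in the respiratory chain genes, and the differences were not tested.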

How the data were processed

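Peak lists of 3 ChIP-seq replicates (whole embryos, 1 group) were used as deposited. Per the deposited notes, the authors called 1 permissive list per replicate and 1 on the pooled alignments, always against the same control, and derived the optimal list by irreproducible discovery rate. The programs for alignment and peak calling and the threshold are not given in the sources used here. Each deposited signal value is the authors' peak strength on an unstated scale, and it ranked peaks within a list. The deposited −log10 q value was read but supports no result. The lists hold no read numbers, so depth is unknown, and 30000 peaks per permissive list is a cap. By its label the pooled list holds background as well as peaks. The optimal list was tested and equals the 7129 strongest pooled peaks.

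A summit was the peak start plus the deposited offset. Coordinates are 1-based on dm6, whose 6 arms fit the lengths of Release 6 in RefSeq. Genes came from Ensembl release 115, with 19252 distinct start sites of protein-coding transcripts. A gene counted when a summit lay within 500 bp of any of its start sites, and a replicate summit matched an optimal one within 100 bp. Genes with no pooled summit were ranked in a replicate by their strongest summit within 500 bp of a start. For each replicate the full list and its strongest 7129 peaks were counted. Wilson 95% intervals cover counting error over genes only, and genes are not replicates. No p-value was computed, since the design has 1 group.

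The genes, the pathway list and the motifs were chosen with earlier results of these data known. The genes named are those with an optimal summit, all L-suffix genes with their parents, the 3 strongest of each complex in full, and up to 4 further genes of each complex in alphabetical order. Of the pathway list, those with a summit and up to 6 without are named. Genes near the edge of the optimal list, and the neighbours of a summit, were named after their values were seen. Alternatives changed the distance, the list, the way a peak is tied to a gene, the start sites and the replicates. Lists on dm3 were not used, and proteins were not compared. The place of the COX7AL summit is not reported here. Code was tested on simulated data. Python 3.11.15, numpy 2.4.6, pandas 2.3.3, scipy 1.17.1 and matplotlib 3.10.9 were used.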

Additional observations from a re-analysis of the deposited data

How the results depend on the processing

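The count of 9 bound genes was 8 with a distance of 250 bp (10%, against 14.6% of all protein-coding genes) and 12 with 1000 bp (15% against 21.5%). It was 10 when the peak interval had to overlap the window (12.5% against 20.1%) and 9 with 1 start site per gene (11.2% against 15.8%). COX7AL2 was the 1 paralog added by the distance of 1000 bp and by the interval, and complex V then had 2 genes at 1000 bp. In the pooled list 30 genes had a summit (37.5%, against 38.8% of all protein-coding genes). They were 14 in complex I, 4 in complex III, 7 in complex IV and 5 in complex V, or 3 paralogs and 27 others. Their median signal value was 157.2. In the stronger part of the optimal list, its upper 50% by signal, ATPsynC, ND-42 and ND-51 remained (3.75%, against 10.1% of all protein-coding genes). The counts were thus 3 in all, 2 in complex I, 0 in complex IV and 3 without an L suffix, with a median signal value of 402.2. The gene of the nearest start site alone left 4 genes, 1 of them in complex I and all 4 without an L suffix. The pathway list had 3 genes at 250 bp, 14 in the pooled list and 2 in the stronger part. Each replicate was also left out in turn, keeping optimal peaks with a matched summit among the strongest 7129 peaks of both others. A peak whose match ranked lower in either list was dropped. This left 3 to 4 genes (3 to 4 without an L suffix). Of these, 2 to 3 were in complex I, 0 to 1 in complex IV and 0 to 1 in complex V. ND-42 and ND-ASHI were kept without each replicate in turn. The share of the subunit genes fell from 11.2% to between 3.75% and 5%, and that of all genes from 18.4% to between 12.1% and 12.6%. Of 100 alternative values, 60 were within 1.5 times the reported value. This tally includes the values of all protein-coding genes, and a 0 that stayed 0 counted as within. The count of 9 bound genes was outside the limit in the pooled list, the stronger part, with the nearest start site alone and without each replicate. No paired analysis was possible because the samples form 1 group. Depth is unknown, so a missing summit is not evidence of absent binding, and mixed stages and cell types limit what a weak summit shows.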
